A study of Mus musculus with 10 samples.

Results

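Crotonylation of lysine 9 of histone H3 (H3K9cr) was compared between neural stem and progenitor cells of the mouse forebrain under water (control) and the same kind of culture given 10 mM crotonate for 24 h. The comparison rests on the 2 deposited H3K9cr peak lists, 1 library each, out of 8 peak lists and 10 samples named by the labels. All peaks on chromosomes 1 to 19 were taken, 31019 in control and 31861 after crotonate, which together make 62880 of the 273422 peaks of all lists. An overlap of 1 bp or more with the other list made a peak shared. A control peak with no partner is called lost and a crotonate peak with no partner gained.

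The cells came from embryos at embryonic day 13.5 and were used at an early passage, in medium that held the epidermal and fibroblast growth factors, and chromatin was immunoprecipitated without crosslinking. Both libraries carry the same antibody catalogue number, and the vendor is named for the control library alone. The mouse strain, and whether the libraries of a treatment came from 1 culture, are not given in the labels. With 1 library per treatment, no difference below has a replicate check or a p-value, and the 95% intervals on shares (exact, Clopper-Pearson) take peaks or genes as units and cover counting error alone.

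Histone crotonylation is a short-chain acylation whose donor is crotonyl-CoA, which cells make during fatty acid and amino acid breakdown and from added crotonate. The acetyltransferase p300 and its relatives can write it, YEATS-domain proteins read it with preference over acetylation, and class I histone deacetylases remove it. Like acetylation of lysine 27 (H3K27ac), it is known from active promoters, which also carry trimethylated lysine 4 (H3K4me3), and from enhancers, which largely lack H3K4me3, whereas trimethylated lysine 27 (H3K27me3) is the mark of Polycomb repression.

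Promoter sequences of 5 genes show the kinds of site at which H3K9cr peaks appeared or vanished. The 250 bases before the listed start are printed 5' to 3' in the gene's direction, from RefSeq on GRCm38.p6, with CG dinucleotides in capitals. The first pair gained an H3K9cr peak that covered all 250 bases, at Trh (chr6:92244651-92244900, minus strand), which encodes thyrotropin-releasing hormone, and at Cdh9 (chr15:16728665-16728914, plus strand), which encodes a neuronal cadherin.
Trh: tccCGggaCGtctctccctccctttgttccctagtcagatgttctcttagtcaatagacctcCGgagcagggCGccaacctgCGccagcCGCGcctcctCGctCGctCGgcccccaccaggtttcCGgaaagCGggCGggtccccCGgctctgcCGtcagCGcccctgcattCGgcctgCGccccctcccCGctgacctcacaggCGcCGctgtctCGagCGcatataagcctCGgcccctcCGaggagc
Cdh9: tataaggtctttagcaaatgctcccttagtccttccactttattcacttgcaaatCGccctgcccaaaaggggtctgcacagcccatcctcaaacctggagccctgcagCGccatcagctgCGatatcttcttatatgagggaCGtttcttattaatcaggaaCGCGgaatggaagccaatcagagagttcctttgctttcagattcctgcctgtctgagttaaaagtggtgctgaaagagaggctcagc
The other genes lost one, at Gjc3 (chr5:137963099-137963348, minus strand), which encodes a connexin of oligodendrocytes, at Ifi44l (chr3:151762892-151763141, minus strand), an interferon-induced gene, and at Neurog1 (chr13:56252181-56252430, minus strand), a proneural transcription factor.
Gjc3: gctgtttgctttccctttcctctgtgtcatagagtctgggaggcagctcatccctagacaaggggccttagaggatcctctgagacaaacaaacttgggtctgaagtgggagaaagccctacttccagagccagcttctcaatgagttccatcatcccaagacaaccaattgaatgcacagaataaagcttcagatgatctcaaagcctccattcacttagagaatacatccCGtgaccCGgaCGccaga
Ifi44l: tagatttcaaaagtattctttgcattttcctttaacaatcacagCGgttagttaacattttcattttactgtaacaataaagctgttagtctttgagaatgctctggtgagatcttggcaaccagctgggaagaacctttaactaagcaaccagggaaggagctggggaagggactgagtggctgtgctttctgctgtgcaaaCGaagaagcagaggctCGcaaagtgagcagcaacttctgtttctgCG
Neurog1: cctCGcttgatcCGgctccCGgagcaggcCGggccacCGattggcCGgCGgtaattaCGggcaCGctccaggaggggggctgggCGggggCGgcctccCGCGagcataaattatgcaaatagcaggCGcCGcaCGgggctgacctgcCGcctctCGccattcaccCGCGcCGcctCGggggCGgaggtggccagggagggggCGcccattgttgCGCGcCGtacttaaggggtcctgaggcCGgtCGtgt
These stretches hold 25 CG dinucleotides at Trh, 6 at Cdh9, 3 at Gjc3, 4 at Ifi44l and 29 at Neurog1. The lost peaks covered 250 of the printed bases at Gjc3, 230 at Ifi44l and 221 at Neurog1. At least 1 CG stood in 93.3% of the 16456 gene promoters in the table, and at least 10 in 54.5%, taking for each gene the listed start with the most.

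Most H3K9cr sites were present in both lists. Of the control peaks, 4676 (15.1%, 14.7 to 15.5) had no crotonate partner, and of the crotonate peaks 4950 (15.5%, 15.1 to 15.9) had no control partner. One-to-one partners numbered 25008, or 80.6% of control and 78.5% of crotonate peaks. A further 802 control peaks (2.59%) overlapped at least 2 crotonate peaks, and 275 crotonate peaks (0.863%) overlapped at least 2 control peaks. Over the one-to-one partners the percentile ranks in the 2 lists had a Spearman rho of 0.95, a description over sites that share both libraries.

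The lists differ in scale, so H3K9cr heights were not compared between them. The median fold enrichment over local background, a value the authors deposited for each peak, was 14.6 in control and 9.27 after crotonate, and the median summit pileup 74 and 40. The lowest background implied by any peak was 3.74 and 3.20. The crotonate list held more peaks over fewer bases, 42.0 Mb against 44.2 Mb, with a median width of 967 bp against 1160 bp. Positions within each list, by percentile of the peak's -log10 q, are therefore used for strength. The lists of the other marks also differ in scale, with a median crotonate to control ratio of fold enrichment over one-to-one partners of 0.872 for H3K27ac, 0.932 for H3K4me3 and 0.945 for H3K27me3. Where the enrichments of those marks are given for both treatments below, each is a value on its own list's scale.

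Sites that appeared or vanished were weak, narrow ones. In the weakest decile of each list 59.3% of control peaks were lost and 61.7% of crotonate peaks gained, and in the fifth decile 3.24% and 4.18%. Only 8 lost and 19 gained peaks stood in the stronger 50% of their list, and none in deciles 8 to 10. The highest lost peak stood at percentile 60.3 and the highest gained peak at percentile 61.4. The median width of a lost peak was 387 bp, against 1360 bp for the other control peaks, and that of a gained peak 350 bp, against 1194 bp. Of the lost peaks 47.5% lay within 10 kb of a crotonate peak, and of the gained peaks 53.1% within 10 kb of a control peak.

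**Figure D1:**
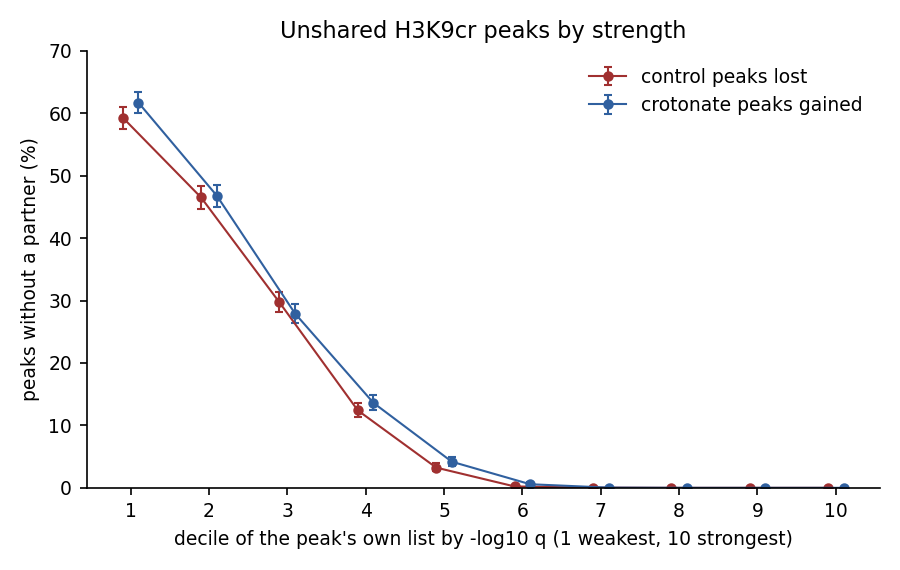
Share of H3K9cr peaks without a partner in the other list (y axis, %) by decile of the peak's own list (x axis, 1 weakest to 10 strongest by -log10 q); bars are exact 95% intervals over peaks. Both shares fall from about 60% in the weakest decile (59.3% lost, 61.7% gained) to 0 in deciles 8 to 10.

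Lost and gained peaks lay at different kinds of chromatin. Sites were classed by overlap with the control lists of H3K4me3 and H3K27ac, which are other libraries than those compared. Peaks with H3K27ac and no H3K4me3, the pattern usual at enhancers, lost 4141 of 13325 members (31.1%, 30.3 to 31.9), and they made up 88.6% of all lost peaks but 43.0% of the control list. Peaks with both marks, the pattern usual at active promoters, lost 21 of 14477 (0.145%). Peaks with H3K4me3 alone lost 60 of 1721 (3.49%), and peaks with neither mark 454 of 1496 (30.3%, 28.0 to 32.7). With sites classed by the crotonate lists the order differed. Then 1132 of 2306 peaks with neither mark were lost (49.1%) and 3452 of 12324 with H3K27ac alone (28.0%). Of the 4162 lost peaks that touched H3K27ac in control, 3391 (81.5%) still touched an H3K27ac peak after crotonate.

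Gained peaks were most often at sites with neither mark. Of the 4039 crotonate peaks that touched neither H3K4me3 nor H3K27ac in control, 2964 (73.4%, 72.0 to 74.7) were gained, and they made up 59.9% of all gained peaks. Peaks with H3K27ac alone contributed 1806 of 11408 (15.8%), those with H3K4me3 alone 173 of 1848 (9.36%) and those with both marks 7 of 14566 (0.0481%). With sites classed by the crotonate lists, 2353 of 3587 peaks with neither mark were gained (65.6%) and 472 of 2440 with H3K4me3 alone (19.3%). No peak of any of the other 3 marks, in either treatment, touched 1524 of the gained peaks (30.8%, 29.5 to 32.1), against 221 of the lost ones (4.73%, 4.14 to 5.37).

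The classes differ in strength, so they were also read within the weakest quartile of each list. There 54.7% of control peaks with H3K27ac alone, 35.7% with neither mark and 11.2% with H3K4me3 alone were lost. With classes from the crotonate lists the lost shares were 51.9% with H3K27ac alone and 55.6% with neither mark. Of the crotonate peaks in that quartile, 84.4% with neither mark, 33.8% with H3K4me3 alone and 30.4% with H3K27ac alone were gained. By place, the same quartile lost 26.4% of its peaks at gene ends and 56.1% of its intergenic ones, and gained 57.8% at gene ends and 43.4% of the intergenic ones.

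**Figure D2:**
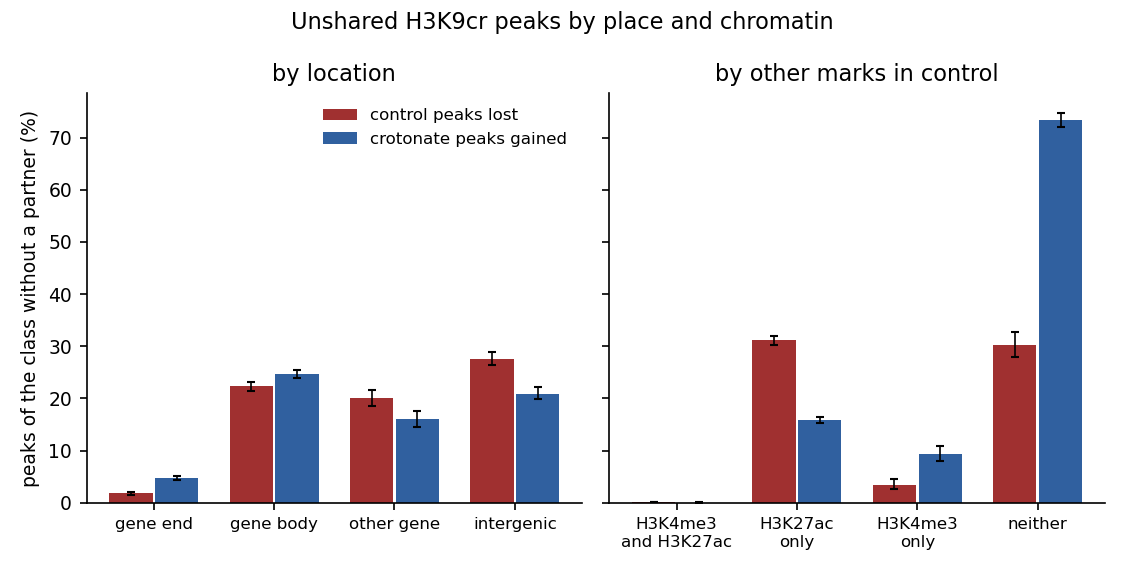
Share of control H3K9cr peaks lost (red) and crotonate H3K9cr peaks gained (blue) by place (left) and by overlap with control H3K4me3 and H3K27ac peaks (right); y axis, % of the peaks of that class, bars with exact 95% intervals over peaks. Losses are highest among intergenic peaks (27.6%) and, by marks, among peaks with H3K27ac only (31.1%) or neither mark (30.3%). Gains are highest among peaks with neither mark (73.4%).

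Most genes kept H3K9cr. A protein-coding gene counted as marked when a peak touched a window of 1 kb on either side of an annotated end, so far ends of genes and close neighbours are included. Of 20661 genes, 12878 (62.3%) were marked in control and 13126 (63.5%) after crotonate. Of the 12878 marked in control, 141 (1.09%, 0.922 to 1.29) lost the mark, and of the 7783 unmarked in control, 389 (5.00%, 4.52 to 5.51) gained it. With windows at listed starts alone, which the table gives for 16456 of the genes, 67 genes lost and 258 gained it.

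Genes that gained H3K9cr more often carried H3K27me3 in control than genes that kept it, 216 of 389 (55.5%, 50.4 to 60.5) against 3567 of 12737 (28.0%, 27.2 to 28.8). Of the genes with H3K9cr in neither list, which were likewise unmarked in control, 812 of 7394 carried it (11.0%, 10.3 to 11.7). Genes that gained H3K9cr seldom had H3K27ac, 15.7% in control and 21.1% after crotonate. Of the genes that kept H3K9cr 92.2% had H3K27ac in control. In control H3K4me3 stood at 74 of the genes that gained H3K9cr, and after crotonate at 182 (46.8%). An H3K4me3 peak in the crotonate list alone stood at 111 of them (28.5%, 24.1 to 33.3). Of the genes with H3K9cr in neither list 72 (0.974%) had one, and of those that kept H3K9cr 120 (0.942%). The last share had a ceiling, since 12329 of the 12737 genes that kept H3K9cr (96.8%) already had H3K4me3 in control. Of the 141 genes that lost H3K9cr, 58.2% had H3K27ac in control, 40.4% H3K27me3 and 26.2% H3K4me3. Whether 2 such marks sat in the same cells cannot be read from lists of a whole culture.

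The promoters of these genes stood between the others in CG content. In the 250 bases before the start the median was 18 CG dinucleotides for 10374 genes with H3K9cr at the start in both lists, 7 for the 258 that gained it, 6 for the 67 that lost it and 2 for the 5757 with H3K9cr in neither. At least 10 stood in 82.0%, 42.2%, 31.3% and 5.78% of them in that order. The gained Trh promoter and the lost Neurog1 promoter printed above, with 25 and 29, thus lie far above the median of their group, and Cdh9, Gjc3 and Ifi44l below it.

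**Figure D3:**
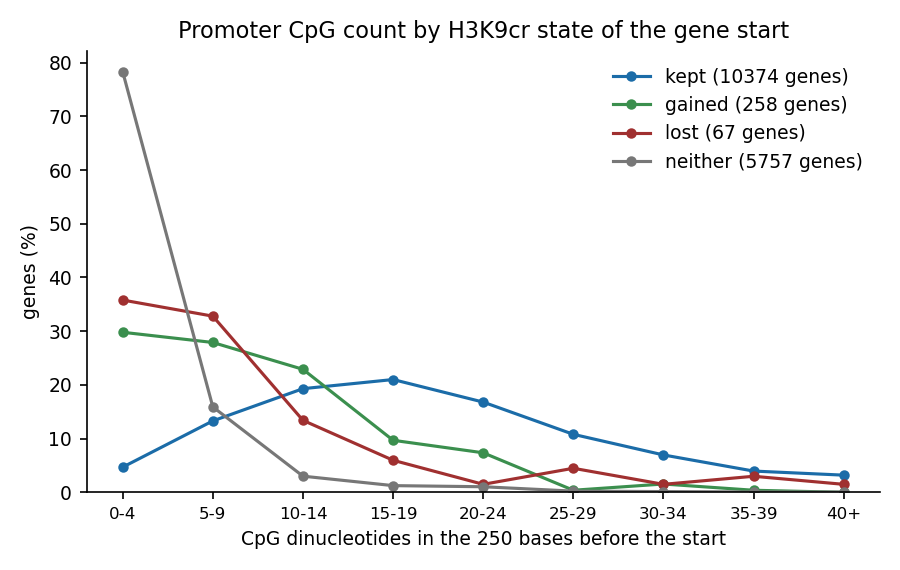
Genes (y axis, % of each group) by number of CG dinucleotides in the 250 bases before the start (x axis, bins of 5), for genes with H3K9cr at the start in both lists (kept), in crotonate alone (gained), in control alone (lost) or in neither. The kept group peaks at 15 to 19 (21.0% of genes), and gained and lost genes are most often in the lowest bin (29.8% and 35.8%) but less so than genes with H3K9cr in neither list (78.3%).

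The 12 genes described next had the strongest gained peaks among those with no H3K9cr at either end in control. Slc5a7, the choline transporter of cholinergic neurons, had no H3K9cr peak in control and a 686 bp peak of 13.6-fold enrichment at percentile 56.6 after crotonate, 237 bp from its listed start. Trh had the same enrichment and percentile over 654 bp at its start. Cdh9 gained a 578 bp peak of 10.5-fold enrichment, and the nearest control peak lay 2089 kb away. Rit2, which encodes a Ras-like GTPase of neurons, gained 432 bp of 10.2-fold enrichment.

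Of these 12 genes, Il12b, a cytokine subunit, gained a narrow peak of 260 bp and 10.2-fold enrichment, 942 bp outside the gene. Tnfrsf1b, a receptor for tumour necrosis factor, gained 576 bp of 9.75-fold enrichment, and Trim6, a ubiquitin ligase, 580 bp of 9.27-fold enrichment. The rest were Hbq1b, a theta-globin gene whose copies make the peak uncertain, with 12.1-fold enrichment, Slc6a21 with 11.4-fold, Mogat1, an enzyme of triglyceride synthesis, with 10.9-fold, Eci2, an isomerase of fatty acid oxidation, with 9.27-fold at the end away from its listed start, and Crybg1 with 9.04-fold. All 12 touched an H3K4me3 peak in the crotonate list, with 9.81-fold to 28.1-fold enrichment. In control 6 of them touched one, at 3.15-fold to 13.3-fold, and the other 6 none.

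Among genes left with no H3K9cr at either end, the 11 strongest lost peaks, which serve 12 genes, had 6.54-fold to 14.4-fold enrichment in control and stood at percentiles 29.3 to 49.6. The strongest lay at the end of Mb, the myoglobin gene, 6640 bp from its listed start, with 483 bp and 14.4-fold enrichment. At Ifi44l the peak had 478 bp and 11.0-fold enrichment over the start, and its H3K27ac enrichment was 7.05 in control and 3.21 after crotonate. Gjc3 lost 1104 bp of 9.49-fold enrichment, with H3K27ac at 8.96 and 4.05 and an H3K4me3 peak of 6.39-fold enrichment in control alone. Opalin, which encodes a myelin-associated protein of oligodendrocytes, lost 466 bp of 7.11-fold enrichment, and its H3K27ac peak of 16.3-fold enrichment was in the control list alone.

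The other strong losses were of mixed kinds. Zar1, an oocyte gene, Vpreb3, a gene of B cell precursors, Cibar2, and a peak shared by Ntsr2, a neurotensin receptor, and Lpin1, a phosphatidate phosphatase, lay under H3K27me3 in both treatments, with 12.5-fold to 89.2-fold enrichment in control. N4bp2l1 and Gm35549 lost peaks of 10.3-fold and 9.87-fold enrichment away from their listed starts, in the first case between N4bp2l1 and a neighbouring gene. Acvrl1, a receptor of the transforming growth factor family in endothelium, lost a 335 bp peak of 6.54-fold enrichment just outside the gene.

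Gene lists by theme follow, chosen with earlier results of these data known, so their shares beside those over all genes are descriptions only. Neural stem and progenitor genes kept the mark, as did 98.9% of all genes marked in control. Of the 43 genes of this list on chromosomes 1 to 19, 42 had H3K9cr at an end in both lists, and 0 gained or lost it, where 1.09% of all marked genes lost it. At the strongest peak of each gene, which need not be the same site in both lists, the median change was -0.83 percentile points, against 0.77 over all 12737 genes that kept the mark, with a range from -9.25 to 11.37. Sox2, a stem cell transcription factor, lay in a domain of 31666 bp in control and 31606 bp after crotonate, at percentiles 97.2 and 96.6. Nes, the nestin gene, had 5539 and 5335 bp at percentiles 91.2 and 88.9. Pax6, a regulator of dorsal progenitors, had the largest rise of the list, from percentile 42.7 to 54.1. The largest fall was at Slc1a3, a glutamate transporter of radial glia, from 94.9 to 85.7.

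The Notch pathway and the cell cycle showed no gain or loss either, where 1.09% of all marked genes lost the mark and 5.00% of unmarked ones gained it. In the Notch list 22 of 23 genes and in the cell cycle list 38 of 38 were marked in both lists, with median changes of -1.90 and 2.26 points. Dll1, a Notch ligand, moved from percentile 98.9 to 91.0 and from a strongest peak of 11480 bp to one of 7141 bp. Hes1, the Notch target that keeps progenitors undifferentiated, stood at 90.8 and 91.2. The Polycomb and trithorax list (35 of 37), the integrated stress response list (20 of 22) and the cilium list (32 of 40) also had 0 gains and 0 losses. In lists of this size 0 is close to the shares over all genes.

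Genes that make, read or remove crotonylation kept it, as did 98.9% of all genes marked in control. Of 24 such genes, 23 were marked in both lists, and Cdyl, whose product hydrates crotonyl-CoA, in neither. Their median change was -0.46 points, from -5.18 to 5.89. Ep300, the gene of p300, stood at percentile 98.0 and 97.9, Mllt3, which encodes a YEATS-domain reader, at 78.4 and 73.8, and the deacetylase gene Hdac1 at 93.0 and 91.9. Hdac3 had a wider strongest peak, 1814 bp in control and 2788 bp after crotonate. In the list of acyl-CoA metabolism, 2 of 8 unmarked genes gained the mark (5.00% over all unmarked genes), Eci2 and Acsm5, an acyl-CoA synthetase, the latter with 3.63-fold enrichment over 404 bp.

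Among neuronal genes the changes were few. Neurog1 and Tbr1 lost the mark among 28 marked proneural and neuronal transcription factors, where 1.09% of all marked genes lost it. The Neurog1 peak, 357 bp of 4.01-fold enrichment at percentile 10.9, lay under H3K27me3 of 214-fold enrichment in control and 110-fold after crotonate. At Tbr1, a regulator of deep-layer cortical neurons, the control peak had a crotonate partner whose edge moved out of the window, so no peak vanished there. Stmn2, a neuronal microtubule regulator, gained 317 bp of 3.78-fold enrichment, 1 of 5 unmarked genes of neuronal structure and synapse. Of 8 unmarked interneuron genes 2 gained the mark, where 5.00% of all unmarked genes did. These were the regulators Lhx6 and Npas1, with peaks of 4.28-fold and 7.13-fold enrichment. Both had an H3K4me3 peak in the crotonate list alone and H3K27me3 in both treatments.

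In the neuropeptide and hormone list 2 of 10 unmarked genes gained the mark, where 5.00% of all unmarked genes did. They were Trh and Pdyn, the dynorphin gene, Pdyn with 3.60-fold enrichment over 604 bp. Of its 13 genes marked in both lists, 5 moved up by at least 20 percentile points, against 246 of 12737 over all genes. This list too was chosen with earlier results known, so the contrast is a description. Gal, the galanin gene, moved from percentile 2.87 to 38.1, and Nmu, the neuromedin U gene, from 22.3 to 44.6. Avp (vasopressin) moved from 16.7 to 38.1, Tac1 (tachykinin) from 21.6 to 42.8 and Npy (neuropeptide Y) from 37.0 to 57.7. The list's median change was 7.98 points, and its median position in control was percentile 43.3, against 80.6 over all genes, which leaves more room to rise.

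Glial and non-neural lists moved in both directions at weak peaks. In the oligodendrocyte lineage 3 of 17 marked genes lost the mark, where 1.09% of all marked genes did. They were Gjc3, Bcas1, with 3.95-fold enrichment, and Gpr17, with 3.16-fold. Of 6 unmarked astrocyte genes 1 gained it, where 5.00% of all unmarked genes did. This was Gjb6, an astrocyte connexin, with 5.71-fold enrichment. Cldn5 and Sox18, 2 of 9 marked genes of endothelium and pericytes, lost peaks of 3.25-fold and 2.74-fold. Of the 9 unmarked genes of that list 1 gained the mark, Anpep, an aminopeptidase of pericytes and other cells, with 6.15-fold enrichment. Col1a2, a collagen gene and 1 of 5 unmarked genes of mesenchyme and meninges, gained 593 bp of 6.90-fold enrichment over its start. Of 20 unmarked mesoderm and endoderm transcription factors 3 gained the mark, Hand1, Gata5 and Myod1, with 3.81-fold to 4.99-fold enrichment. Of 14 marked ones 1 lost it, Tbx4, with 3.38-fold.

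Some gains in the lists of Hox genes, secreted signals and pluripotency lay under H3K27me3. Hoxb8 and Hoxd9 gained peaks of 3.61-fold and 2.95-fold among 38 unmarked Hox genes (5.26%, where 5.00% of all unmarked genes gained the mark). Of 18 unmarked genes of secreted signals 4 gained the mark, Wnt10b, Fgf17, Fgf20 and Ihh, with 2.85-fold to 5.71-fold enrichment. Of 19 unmarked genes of pluripotent and germ cells 2 did, Utf1 and Prdm14, with 3.81-fold and 4.28-fold. All 8 touched H3K27me3 in both treatments and none touched H3K27ac. Of all genes that gained H3K9cr 55.5% carried H3K27me3 in control. How many unmarked members of these lists without a gain carried it was not counted. These peaks stood at percentiles 1.81 to 35.1 of the crotonate list.

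Of the interferon and inflammatory genes, 4 of 13 unmarked ones gained the mark and 1 of 21 marked ones lost it, beside 5.00% and 1.09% over all genes. Oasl1, an interferon-induced gene, gained 6.18-fold enrichment over 417 bp, with H3K27ac at 3.39 in control and 7.08 after crotonate, and its relative Oasl2 moved from percentile 18.5 to 48.0. Ifit1, whose window is shared with its copy Ifit1bl2 and is therefore uncertain, gained 5.23-fold, and the chemokine gene Cxcl2 3.57-fold beside Il12b. The loss was at Ifi44l. In the muscle and heart list 2 of 10 marked genes lost peaks, Mb and Actc1. The only gain among its 9 unmarked genes, at Tnnc1, came from a shared Nisch promoter peak whose edge moved into the window. The 8 muscle and heart genes marked in both treatments had a median change of -9.67 points, the lowest of the 25 lists. Their range was from -13.52 to 19.24. Ckm moved from 54.6 to 43.9 and Des from 26.6 to 15.2, while Ryr1 moved up from 36.7 to 56.0. In axon guidance 1 of 4 unmarked genes gained the mark, Robo2 with 3.24-fold, and 1 of 37 marked ones lost it, Slit1 with 3.59-fold.

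Defining markers of the labelled cell type and of others were also read. All 12 markers of neural stem cells had H3K9cr in both lists, with 10.5-fold to 191-fold enrichment in control. Over all genes 62.3% were marked in control and 63.5% after crotonate. Of the other cell types, 5 of 5 oligodendrocyte lineage, 5 of 6 neuronal, 1 of 4 astrocytic and 2 of 5 microglial markers were marked in both, with Rbfox3, Gfap, Aqp4, S100b, Aif1, Cx3cr1 and Csf1r unmarked. Endothelial markers numbered 2 of 5 in control and 1 after crotonate, mesenchymal ones 4 and 5 of 5, and erythroid ones 2 of 4 in both. Markers of several other types were thus marked too, so the presence of H3K9cr does not single out a cell type. The part of other cell types in the changes at their genes was not tested.

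Shared peaks were slightly narrower, as called, after crotonate. Widths were not adjusted for the difference in scale between the lists described above. The part of that difference in the width changes here and below was not tested. The median ratio of crotonate to control width over the 25008 one-to-one partners was 0.979, and 14185 of them (56.7%) were narrower by at least 1 bp. Those that became narrower gave up 3436 kb in all, and those that became wider added 1845 kb. At least 1.5 times narrower were 2864 (11.5%, 11.1 to 11.9), and at least 1.5 times wider 1114 (4.45%, 4.20 to 4.72).

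Narrowing was concentrated at peaks with H3K27ac alone. Their median ratio was 0.837, from a median of 876 bp to 642 bp, and 2441 of 8420 (29.0%) narrowed, which is 85.2% of all narrowed peaks. Peaks with H3K4me3 and H3K27ac had a ratio of 0.996 and 2.04% narrowed. Peaks with H3K4me3 alone had a ratio of 1.08 and 13.3% widened. Peaks with neither mark had 1.10, but 0.969 when classed by the crotonate lists, so their direction depends on which lists define the class. The H3K27ac peaks of the same treatments were themselves narrower, with a median ratio of 0.866 over 33154 one-to-one H3K27ac partners, and of 0.747 at the narrowed and 0.937 at the widened H3K9cr peaks.

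**Figure D4:**
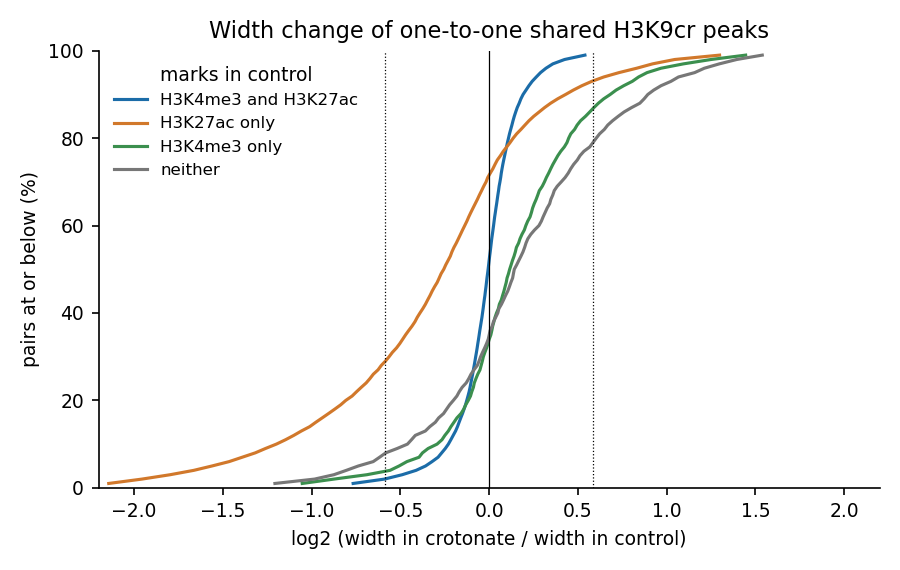
Cumulative share of one-to-one shared H3K9cr peaks (y axis, %) by log2 of crotonate over control width (x axis), for peaks classed by control H3K4me3 and H3K27ac; dotted lines mark 1.5 times narrower and wider. The curve for H3K27ac only lies to the left (median ratio 0.837), that for both marks is steep at 0 (0.996), and those for H3K4me3 only (1.08) and neither (1.10) lie to the right.

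Among gene ends, Slc38a4, an amino acid transporter gene, had the largest widening, from 271 bp to 1674 bp, 6.18 times. Sardh, the mitochondrial sarcosine dehydrogenase, went from 535 to 1988 bp, Lypd3 from 353 to 1290 bp and Mapk13, a p38 kinase, from 348 to 1263 bp. Cd40, a receptor of antigen-presenting cells, went from 350 to 1191 bp, Ptk2b, a calcium-regulated kinase, from 329 to 1091 bp, Ccdc184 from 324 to 1081 bp and a peak shared by Xpc and Tmem43 from 308 to 1075 bp. These 8 widened peaks all stood below percentile 35 in control.

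The strongest narrowing at gene ends was at sites with H3K27ac in control, mostly away from listed starts. The peak near Ccdc194 went from 2505 bp to 314 bp, 7.98 times narrower, that at Tyw5 from 1758 to 259 bp and that at Lrrc74a from 2200 to 350 bp. Cdhr3 went from 1742 to 395 bp, Edar, the ectodysplasin receptor, from 1371 to 324 bp, and Mical2, an actin-oxidising enzyme, from 1546 to 367 bp. Ccdc187 and Il25 went from 1245 and 1657 bp to 273 and 372 bp. All 8 touched H3K27ac in control, with 4.47-fold to 22.4-fold enrichment, and 7 of the 8 after crotonate, with 5.16-fold to 17.1-fold. Most narrowed peaks anywhere did so in control, 85.2% with H3K27ac alone and 9.95% with H3K4me3 as well.

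Rank moved little for most sites, and the median change differed in sign between classes. Of the one-to-one partners, 957 (3.83%, 3.59 to 4.07) stood at least 20 percentile points higher in the crotonate list and 713 (2.85%, 2.65 to 3.06) at least 20 lower. Peaks with H3K27ac alone made up 678 of the 713 that fell (95.1%), and their median change was -1.55 points. Peaks with H3K4me3 alone had a median change of 9.04 points and 18.1% rose, and peaks with neither mark 11.63 points and 26.6%. Peaks with both marks moved by 0.46 points, and 0.222% rose and 0.151% fell.

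A weak peak has more room to rise, so classes were also set side by side at like control strength. Between control percentiles 40 and 60 the median change was -4.69 points for 2839 peaks with H3K27ac alone, 2.47 for 2151 with both marks, 5.85 for 651 with H3K4me3 alone and 5.36 for 61 with neither. Between 20 and 40 it was -2.51, 8.14, 12.06 and 8.70 in the same order. Below percentile 20 peaks with H3K27ac alone stood higher too, by a median of 7.55 points over 1775 peaks at a width ratio of 1.01. The medians there were 22.74 points with H3K4me3 alone and 14.94 with neither. All these medians cover one-to-one partners alone and leave out lost peaks, whose share differed by class. In the weakest quartile of the control list 54.7% with H3K27ac alone were lost, 11.2% with H3K4me3 alone and 35.7% with neither. Of the peaks that rose, 392 (41.0%, 37.8 to 44.2) touched H3K27me3 in control, against 21.7% of all one-to-one partners. Among peaks with H3K4me3 alone, however, 18.1% rose both with and without H3K27me3.

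**Figure D5:**
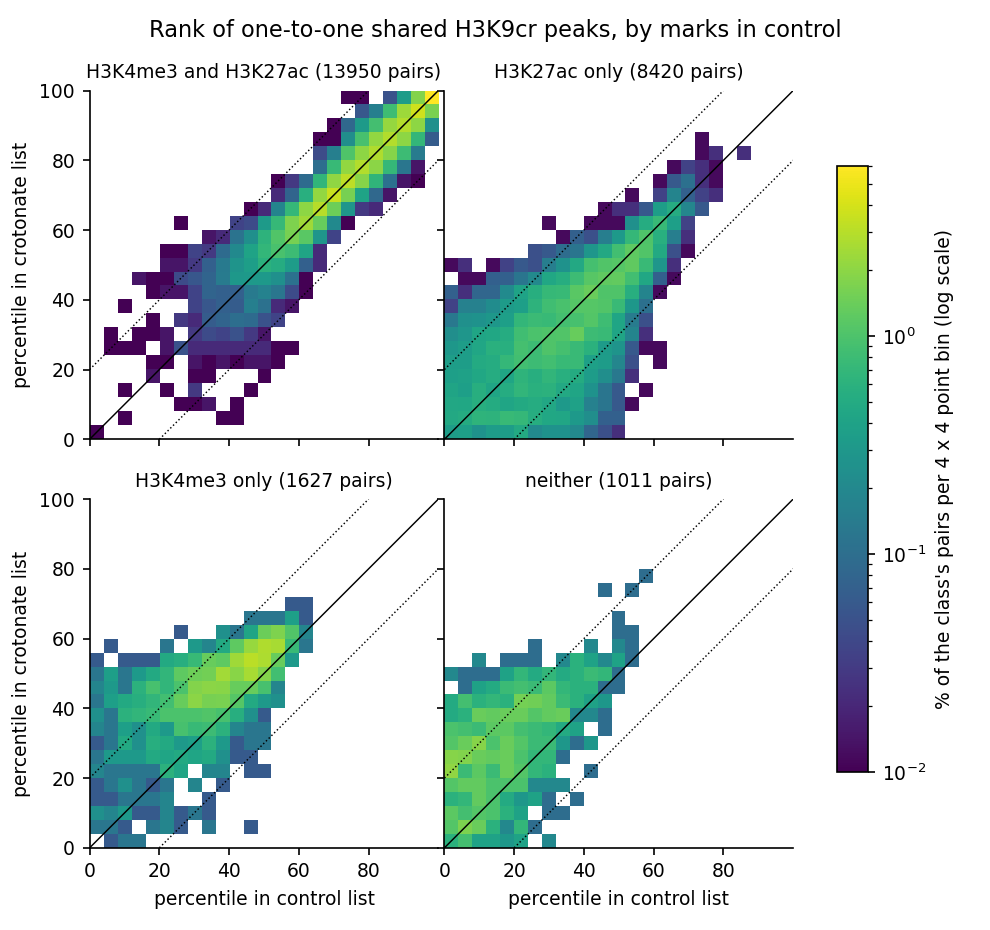
Percentile of each one-to-one shared H3K9cr peak in the control list (x axis) and in the crotonate list (y axis) by -log10 q, in 4 panels by control H3K4me3 and H3K27ac; colour gives the share of the class's pairs per bin on a log scale, the solid line equal rank and the dotted lines 20 points up or down. Peaks with both marks lie along the diagonal (median 0.46 points), those with H3K27ac only spread below it (8.05% fell), and those with H3K4me3 only or neither lie above it (9.04 and 11.63 points).

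The strongest ranks were also reordered. Of the 500 top control peaks, 346 (69.2%) overlapped one of the 500 top crotonate peaks, of the top 1000, 737 (73.7%), and of the top 5000, 4369 (87.4%). Jam2, a junctional adhesion molecule, had one of the larger falls among strong gene-end peaks, from percentile 93.0 to 75.5 at almost unchanged width (4100 and 4043 bp), and a peak over the starts of Garem2 and 3110082J24Rik moved from 94.3 to 77.1.

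The largest rises at gene ends among peaks that reached percentile 50 in either list were at Clic6, a chloride channel family gene, from 2.87 to 54.4, and Rps6kl1, from 7.84 to 56.2. Ppfia4, a liprin of synapses, moved from 4.64 to 50.5, Slc38a4 from 8.77 to 54.4 and Apela, a peptide hormone gene, from 7.38 to 51.1. A peak shared by Snorc and Ngef moved from 9.80 to 53.3, H2-Q6, one of several near-identical class I genes and so uncertain, from 10.9 to 53.3, and Mal, a myelin and lymphocyte gene, from 11.9 to 51.5. Each of the 8 touched H3K4me3 after crotonate, with 5.16-fold to 35.1-fold enrichment, and 6 of the 8 in control, with 4.99-fold to 8.94-fold. None touched H3K27ac in control, where 37.9% of all peaks that rose had H3K27ac alone and 3.24% had it with H3K4me3.

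Of the 8 largest falls among gene-end peaks that reached percentile 50 in either list, 4 were at ends away from listed starts. Among weaker ones Cdhr3 and Edar, named above for their narrowing, moved by -38.0 and -30.4 points. The peak by Btd, the biotinidase gene, moved from percentile 52.6 to 17.3, that by Ubr4, a ubiquitin ligase, from 52.4 to 20.2 and that at Ung, the uracil-DNA glycosylase gene, from 57.2 to 27.3. Their H3K27ac enrichments were 14.4, 13.9 and 27.5 in control and 8.49, 5.71 and 13.3 after crotonate. Rnf144b moved from 51.1 to 32.5. At starts, Fbll1, a fibrillarin-like gene, moved from 53.9 to 27.3 and Slc12a8 from 50.7 to 31.0.

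Intergenic sites, which touch no annotated gene and no gene-end window, lost 1563 of 5669 control peaks (27.6%, 26.4 to 28.8) and gained 1126 of 5376 crotonate peaks (20.9%, 19.9 to 22.1). Against the 15.1% and 15.5% over all peaks, both shares were above the list's own. In the weakest quartile of the crotonate list 43.4% of intergenic peaks were gained, against 57.8% at gene ends and 51.1% in gene bodies. In genes that are not protein-coding the share was 42.2%. In that quartile of the control list 56.1% of intergenic peaks were lost, the highest share of any place. Lost sites lay farther from genes, at a median of 36.4 kb from the nearest protein-coding gene with 43.0% beyond 50 kb, against 17.0 kb and 24.4% for gained ones. H3K27ac stood at 89.4% of the lost sites in control and at 75.9% after crotonate. At the gained sites it stood at 31.8% and 37.0%, and 403 of them (35.8%) touched no other mark in either treatment.

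The strongest lost intergenic peak lay 1.25 kb from Lsm11 (chr11:45926711-45927018), with 308 bp and 29.3-fold enrichment. The next, 4.69 kb from Zfp418 (chr7:7188252-7188516), had 265 bp and 21.3-fold enrichment, and both touched H3K4me3 in both treatments. A peak 8.29 kb from Cox8b had 17.1-fold enrichment, and a narrow one 5.93 kb from Enc1 14.0-fold. The others were wider and touched H3K27ac in both treatments. Near Egln3, an oxygen-sensing hydroxylase gene, a peak of 2278 bp (chr12:54286737-54289014) and 15.4-fold enrichment lay 82.9 kb away, with H3K27ac at 17.5 in control and 5.40 after crotonate. At Slc37a1 the lost peak had 1522 bp and 15.6-fold enrichment, near Car8 989 bp and 14.8-fold and near Prag1 984 bp and 12.8-fold.

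The strongest gained intergenic peak lay 61.8 kb from Gng4 (chr13:13889717-13889986), with 270 bp and 14.7-fold enrichment, and H3K4me3 of 20.0-fold in control and 34.6-fold after crotonate. Peaks near Slc7a12, Ube2h and 1700029H14Rik each had 10.9-fold enrichment, and H3K27ac at the last was 6.81 in control and 17.2 after crotonate. Peaks near Map3k21 and Vps13c, with 9.84-fold and 9.51-fold enrichment, touched no other mark. Those near Mzt1 and Arrdc4 had 9.75-fold and 9.07-fold.

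Inside gene bodies, away from the ends, 2405 of 10785 control peaks were lost (22.3%, 21.5 to 23.1) and 2846 of 11543 crotonate peaks gained (24.7%, 23.9 to 25.5). The strongest losses were in Dab1, the Reelin adaptor of neuronal migration, with 1766 bp and 15.6-fold enrichment, Slc8a2, a sodium-calcium exchanger, with 15.4-fold, 6430548M08Rik with 14.3-fold, and Slc20a2 and Plat, the tissue plasminogen activator gene, with 14.1-fold each. Cadps and Myo3b had 13.5-fold and Trio, a guanine nucleotide exchange factor of axons, 13.3-fold. All 8 touched H3K27ac in control and 6 still did so after crotonate, beside 89.0% and 74.1% of all lost peaks.

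The strongest gain inside a gene was in Syt11, a synaptotagmin, with 245 bp and 18.5-fold enrichment, 0.293 kb from a control peak and with no other mark. Ppp2r2c, a regulatory subunit of protein phosphatase 2A in brain, gained 1702 bp of 10.2-fold enrichment, with H3K4me3 at 4.99 in control and 30.5 after crotonate. Acacb, the acetyl-CoA carboxylase that restrains mitochondrial fatty acid uptake, gained 405 bp of 7.93-fold enrichment. Insrr, Ldlrad2, Ptgs1, a cyclooxygenase gene, Elf5 and Fam131c gained peaks of 7.43-fold to 8.84-fold. None of these 8 touched H3K27ac in control, where 36.6% of all gained peaks did.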

How the data were processed

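Native ChIP-seq peak lists of H3K9cr were used for 1 control and 1 crotonate library, with the lists of H3K4me3, H3K27ac and H3K27me3 for classes. The submitters' processing notes name Bowtie2 2.4.1, MACS2 2.2.7.1 and GRCm38. Read totals, calling settings and duplicate handling: not given in the sources used here, so the depth is unknown. Each table has the layout of a peak caller's output for 1 library, per the file headers. Of the deposited values, the pileup is a coverage signal at the summit and the fold enrichment its ratio to local background. The -log10 of the p-value and of the q-value at the summit are the authors', and the deposited positions count from 1. H3K9cr peaks were ranked within a list by the -log10 q, and enrichments of other marks are printed side by side without rescaling.

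Lists were cut to chromosomes 1 to 19, leaving out 886 control and 805 crotonate peaks. Percentiles are ranks by -log10 q, and the implied background is the pileup plus 1 over the fold enrichment, minus 1. Genes are 20661 RefSeq protein-coding genes of GRCm38.p6, matched by symbol. Starts alone had been planned where the reference gave them, but they cover only 79.6% of genes, so windows at both ends were used and starts added as an alternative. Gene lists held 25 themes. Named sites were the strongest 12 gene-end peaks and 8 of each other kind each way, and up to 6 members per list each way. Members and lists were chosen with earlier results of these data known. The matching was tested on simulated lists. Python 3.11.15, pandas 2.3.3 and scipy 1.17.1 were used. Intervals treat neighbouring peaks as independent, and reads that carry no molecular identifiers may repeat a molecule. Alternatives covered strength, overlap, list length, windows, merging, ranking measure and the sex chromosomes. The values of some list members are not reported here.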

Additional observations from a re-analysis of the deposited data

How the results depend on the processing

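Most values changed little with the processing. Of the 70 recomputed main values 51 moved by no more than 1.5 times, or for the median width within its interval, and 19 moved further. Taking the stronger 50% of 1 list against the full other list left 8 lost and 19 gained peaks, 6 and 6 of them intergenic. Asking for an overlap of 50% of both peaks gave 7588 lost and 8430 gained peaks and 1976 gained intergenic ones. Starts alone, added after the data were seen, gave 67 genes that lost and 258 that gained H3K9cr. The median width ratio was 0.986 with peaks within 3 kb merged, 0.976 with summed widths and 0.989 in the stronger 50% of the control list, where 81 peaks widened and 502 narrowed. With a limit of 2 times, 350 widened and 1307 narrowed. With percentiles among one-to-one peaks alone 581 rose, and with a limit of 30 points 213 rose and 182 fell. In the former the median change at peaks with H3K4me3 and H3K27ac was -0.01, and with classes from the crotonate lists, added later, the median width ratio at peaks with neither mark was 0.969. The cause of these shifts was not tested.

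A count within 1.5 times can hide different genes. With the stronger 50% of each list, 30 of the 141 lost and 30 of the 389 gained genes were called again, and of the named genes 0 of 22 lost and 10 of 36 gained. With windows of 500 bp 17 of 22 and 29 of 36 named genes kept their call, and with starts alone 9 of 16 and 24 of 29 that have a start. No paired analysis was possible because each treatment has 1 library, and for the same reason no library could be left out. Read depth is unknown, and a site that narrowly missed being called in 1 library is counted here as unshared.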

Other observations

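Several genes held clusters of unshared H3K9cr peaks. They were singled out after their values were seen, as the genes with the most lost or gained peaks in their span and 1 kb around it, and long genes have more room for peaks. Elmo1, which encodes a regulator of Rac signalling and cell migration, had 17 peaks in control and 7 after crotonate, with 10 lost and 1 gained. Cpvl, a carboxypeptidase gene of 106 kb, went from 8 to 2 peaks with 7 lost, Dennd1a from 16 to 8 with 8 lost and Sipa1l2 from 11 to 5 with 7 lost. Gains were most frequent in Zmiz1, a transcriptional coactivator gene, from 11 to 20 peaks with 13 gained and 3 lost, and in Nfix, a transcription factor of neural progenitors, from 12 to 20 with 11 gained and 3 lost. Mpp7, a polarity scaffold gene, went from 3 to 12 peaks with 9 gained. The overlapping predicted genes Gm37013, Gm38666 and Gm38667 share peaks, and they gained 12, 11 and 11. In all, 1762 genes held a lost peak, 2739 a gained one and 618 both.

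The shares varied by chromosome. Losses made up 109 of the 967 control peaks on chromosome 19 (11.3%, the lowest share) and 379 of 1998 on chromosome 1, the highest. Gains made up 159 of the 1313 crotonate peaks on chromosome 13 (12.1%, the lowest share) and 253 of 1403 on chromosome 15, the highest.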
